A study of Arabidopsis thaliana with 8 samples.

Results

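The windows described here are the 100-bp windows of the 5 nuclear chromosomes in which small RNAs (sRNAs) of 21 nt were the main product. A window was chosen if it lay outside the rDNA, held at least 80 reads of 18 to 26 nt summed over all 8 libraries, and had 21 nt as its most frequent length with at least 35% of that sum. The rule was met by 485 windows of 33281 nuclear windows outside rDNA with at least 80 reads, of 1191216 such windows at any count, and of 1196681 windows in all. Members separated by no more than 1 window were joined, which gave 277 loci. The members were thus selected on the summed read count and the summed 21-nt share, so both are descriptions and were not tested. The sRNAs came from 18-day-old Arabidopsis seedlings of 4 genotypes, each with 2 libraries. Both *hot3-2* and *hot3-3* are T-DNA insertion alleles of *HOT3*, which encodes the translation initiation factor eIF5B1. *HOT3-EYFP* is the *hot3-2* mutant with a fusion of HOT3 to a yellow fluorescent protein driven by the *HOT3* promoter, and WT is the Col-0 accession. All plants were grown alike at 23 °C per the labels, without a treatment. The study calls the libraries of a genotype independent replicates without saying whether they came from separate cultures, so every p-value below measures the spread between libraries, which may be technical. sRNA counts hold no tissue marker mRNAs, so the label seedling could not be checked against markers. sRNAs were measured in bulk seedlings, in which fewer cells of a type and less sRNA per cell cannot be told apart.

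In plants, sRNAs of 21 nt are cut by Dicer-like enzymes from folded or double-stranded RNA. DCL1 releases microRNAs (miRNAs) from hairpin precursors, which mostly guide AGO1 to cleave or repress mRNAs. DCL4 cuts trans-acting siRNAs (tasiRNAs) from *TAS* transcripts after a miRNA has cleaved them and RDR6 has copied them into double strands. miR173 triggers *TAS1* and *TAS2*, miR390 triggers *TAS3* and miR828 triggers *TAS4*. Some mRNAs that miRNAs or tasiRNAs target, among them mRNAs of pentatricopeptide repeat (PPR) proteins, which act on organellar RNA, become templates of further 21-nt siRNAs. Most siRNAs of 24 nt, in contrast, come from transposons and repeats.

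The mature miRNAs below are those on which the comparison of genotypes turned, and they are shown so that families can be recognised by their seed. They were copied from the RefSeq genome TAIR10.1 at the annotated positions and are written 5′ to 3′ as RNA. Capitals mark the seed, bases 2 to 8. The windows of the first 5 had more reads in the *hot3* mutants than in plants with functional HOT3 and those of the next 6 had fewer, except that of miR165a-3p, which is shown for its seed.

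miR845a: cGGCUCUGauaccaauugaug
miR5026: aCUCAUAAgaucgugacacgu
miR173-3p: uGAUUCUCuguguaagcgaaa
miR843: uUUAGGUCgagcuucauugga
miR823: uGGGUGGUgaucauauaagau
miR159b-3p: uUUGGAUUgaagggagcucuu
miR159a: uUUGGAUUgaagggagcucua
miR165a-3p: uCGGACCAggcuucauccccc
miR166a-3p: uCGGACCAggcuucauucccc
miR167a-5p: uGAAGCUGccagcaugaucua
miR391-5p: uUCGCAGGagagauagcgcca

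miR159a and miR159b-3p share the seed UUGGAUU, and miR165a-3p and miR166a-3p share the seed CGGACCA. The other 7 seeds shown occurred once among these 11. Over all members, 159 annotated mature miRNAs started in a member window. They had 132 distinct sequences with 119 distinct seeds, 123 of the sequences were 21 nt long and 78 of them (59.1%) started with U.

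Outside the annotated miRNA genes, 4 windows are shown because their sequence bears on how they are read. The first holds, in capitals, the reverse complement of miR5026 in an intergenic stretch of chromosome 5. The next 2 lie in 1 intergenic stretch of chromosome 1, and the last lies in the gene AT4G19580. In these 3 windows capitals mark an arm of an inverted repeat, which is a stretch whose exact reverse complement lies on the same strand within 1000 bp. All 4 are from the plus strand of TAIR10.1.

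chr5:14318700-14318799: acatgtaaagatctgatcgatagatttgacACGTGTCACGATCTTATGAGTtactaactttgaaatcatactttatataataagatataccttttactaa
chr1:27635600-27635699: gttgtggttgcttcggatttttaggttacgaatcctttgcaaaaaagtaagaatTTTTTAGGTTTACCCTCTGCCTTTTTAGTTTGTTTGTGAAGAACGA
chr1:27636100-27636199: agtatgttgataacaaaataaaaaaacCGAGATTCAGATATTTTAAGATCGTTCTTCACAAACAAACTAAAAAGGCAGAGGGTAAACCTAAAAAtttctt
chr4:10668700-10668799: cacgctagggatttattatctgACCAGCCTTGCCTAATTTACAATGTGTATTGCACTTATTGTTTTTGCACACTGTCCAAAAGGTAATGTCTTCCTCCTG

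The arms on chromosome 1 are 67 bp long. They run over positions 27635654 to 27635720 and 27636127 to 27636193, so that the first continues past the end of the window shown. The arm in AT4G19580 is 81 bp long and also continues past its window.

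The windows lay mainly in miRNA genes, *TAS* genes and protein-coding exons. Of the 485 windows, 175 overlapped an annotated miRNA gene (36.1%), 33 a *TAS* gene (6.80%) and 195 an exon of a protein-coding gene (40.2%). Another 44 were intergenic (9.07%), 20 lay in a pseudogene or transposon gene, 9 in a gene of a tRNA, snRNA, snoRNA or rRNA, 5 in an intron and 4 in another non-coding RNA gene. Among the other 32796 nuclear windows with at least 80 reads, 175 overlapped a miRNA gene and 2 a *TAS* gene, while 22063 were intergenic, as the plot of annotation classes shows. So 33 of 35 *TAS* windows and 175 of 350 miRNA windows with enough reads met the rule. The windows lay on all 5 chromosomes, in part in clusters. On chromosome 1, 76 of them lay in PPR genes and related genes between positions 23177800 and 23508799. On chromosome 5, 19 lay in the single gene AT5G38850. Chromosomes 1 to 5 held 191, 69, 75, 48 and 102, and 19 windows (3.92%) lay in the 20 gene-poorest of 121 blocks of 1 Mb, against 30.1% of the other windows with enough reads, 31.0% of 583 windows in which 22 nt dominated by the same limits and 31.3% of 27302 in which 24 nt did.

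**Figure D1:**
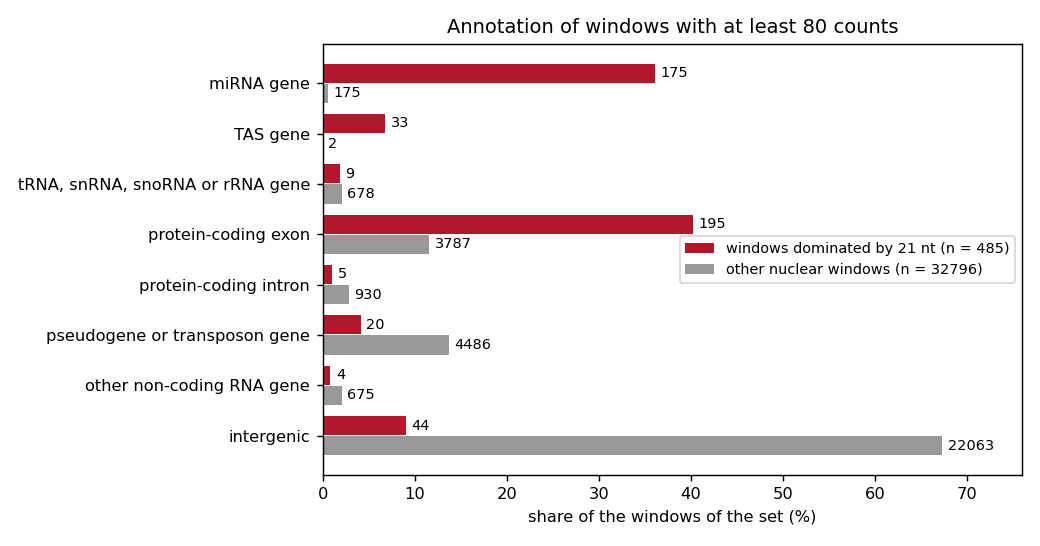
Annotation of the 485 windows dominated by 21 nt (red) and of the other 32796 nuclear windows with at least 80 reads (grey). Bars give the share of each set on the x axis in percent and the numbers give windows, with exons (195), miRNA genes (175) and intergenic stretches (44) leading the red bars and intergenic stretches (22063) the grey ones.

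The members varied widely in depth and purity. The summed count ran from 80 to 308096 with a median of 356 and an upper quartile of 1354. The 21-nt share ran from 35.007% to 96.7% with quartiles of 51.0%, 61.2% and 72.5%, and 369 windows were at 50% or more. At the lower edge of the share, a window at chr5:10019300-10019399 was inside at 35.007% of 697 reads, while a window of chromosome 3 was outside at 34.94% of 4396 reads. At the edge of the count, 3 windows with 80 reads were inside and 3 windows with 79 reads and 21 nt as the leading length were outside.

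A few loci supplied most of the reads. miRNA genes held 1703965 of the 21-nt reads of the members (67.8%), *TAS* genes 637449 (25.4%), exons 123423 (4.91%) and intergenic windows 33956 (1.35%). The top 10 loci held 65.7% of the 21-nt reads and the top 50 held 95.8%. In falling order these 10 were *TAS1A*, *MIR159b*, *TAS1C*, *MIR159a*, *MIR398b*, *TAS2*, *MIR398c*, *MIR5026*, *MIR161* and *MIR845a*. The largest locus, *TAS1A*, held 9.36%. Summed levels therefore describe a small number of loci, whereas counts of windows describe the rest.

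Sequence features that the rule did not use differed between the classes. Folded in a computer as 300 nt around the window, miRNA windows had a median free energy of -83.5 kcal/mol, *TAS* windows -59.6, exons -69.4 and intergenic windows -57.35. A sample of 292 windows dominated by 22 nt had -58.1 and a sample of 272 windows dominated by 24 nt had -61.75. An energy of -90 kcal/mol or lower was found for 61 of the 175 miRNA windows and for 2 of the 44 intergenic ones. The median GC content was 36.3% in miRNA windows, 30.3% in *TAS* windows, 40% in exons and 31.2% in intergenic windows. These values depend on base composition and were not tested.

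The total number of reads was 6793502 to 8210328 per library. Nuclear windows outside the rDNA held 51.0% and 50.5% of them in *hot3-2*, 45.7% and 45.4% in *hot3-3*, 32.6% and 32.2% in *HOT3-EYFP*, and 42.1% and 41.7% in WT. The part of the reads that fell on rDNA and organelles thus differed between genotypes, and levels relative to total reads move with it. Levels were therefore read beside nuclear and TMM scaling. The TMM factors were computed over all windows tested, which included windows of rDNA or organelles.

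The 485 windows together differed less between *hot3-2* and WT than the classes within them did. Levels are given as 21-nt reads per 1000000 total reads of the library (RPM). The windows held 52789 and 52655 RPM in *hot3-2*, 42839 and 42670 in *hot3-3*, 28603 and 28040 in *HOT3-EYFP*, and 47399 and 47153 in WT. The groups did not overlap, with *HOT3-EYFP* lowest. The ratio to WT depended on the scaling. It was 1.12 in *hot3-2* per total reads, 0.920 per nuclear reads and 0.968 with TMM. For *hot3-3* the ratios were 0.904, 0.832 and 0.878, and for *HOT3-EYFP* they were 0.599, 0.774 and 0.737. The direction for *hot3-2* thus changed with the scaling, whereas *hot3-3* and *HOT3-EYFP* were below WT under each of the 3. With 2 libraries a group an exact permutation test cannot go below p = 0.333, so these sums are given without a test.

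The miRNA genes split into those of conserved families, meaning families known from many flowering plants, and the rest. Windows of conserved families held 18386 and 19208 RPM in *hot3-2*, 16624 and 16608 in *hot3-3*, 17229 and 16614 in *HOT3-EYFP*, and 28436 and 28260 in WT. WT was thus above the other 3 genotypes, the complementation line included. The other miRNA genes held 15153 and 14779 in *hot3-2*, 11330 and 11288 in *hot3-3*, 3827 and 3812 in *HOT3-EYFP*, and 5194 and 5187 in WT. Both alleles were above both genotypes with functional HOT3, without overlap. The ratio to WT for the other miRNA genes was 2.88 in *hot3-2* and 2.18 in *hot3-3* per total reads, 2.38 and 2.00 per nuclear reads, and 2.50 and 2.12 with TMM. The windows of *MIR845a* and *MIR5026* weighed heavily in these ratios. In the first *hot3-2* library they held 22371 and 28678 of 96145 TMM-scaled reads of the class. The first *hot3-3* library had 20190 and 21849 of 80488 there, and the first WT library 275 and 6773 of 38342. These ratios thus do not describe the class as a whole. For the conserved families the ratio to WT was 0.663 for *hot3-2*, 0.586 for *hot3-3* and 0.597 for the complementation line per total reads, and 0.547, 0.539 and 0.771 per nuclear reads. *TAS* windows held 14785 and 14278 in *hot3-2*, 11452 and 11216 in *hot3-3*, 6080 and 6095 in *HOT3-EYFP*, and 11494 and 11419 in WT. *hot3-3* overlapped WT there, and *HOT3-EYFP* lay below every other genotype. Exon windows held 3087 and 3163 in *hot3-2*, 2417 and 2487 in *hot3-3*, 1068 and 1045 in *HOT3-EYFP*, and 1756 and 1733 in WT. Intergenic windows held 953 and 818 in *hot3-2*, 712 and 745 in *hot3-3*, 284 and 346 in *HOT3-EYFP*, and 362 and 382 in WT. In both classes the alleles were above both genotypes with functional HOT3. The plot of levels by class shows these values.

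**Figure D2:**
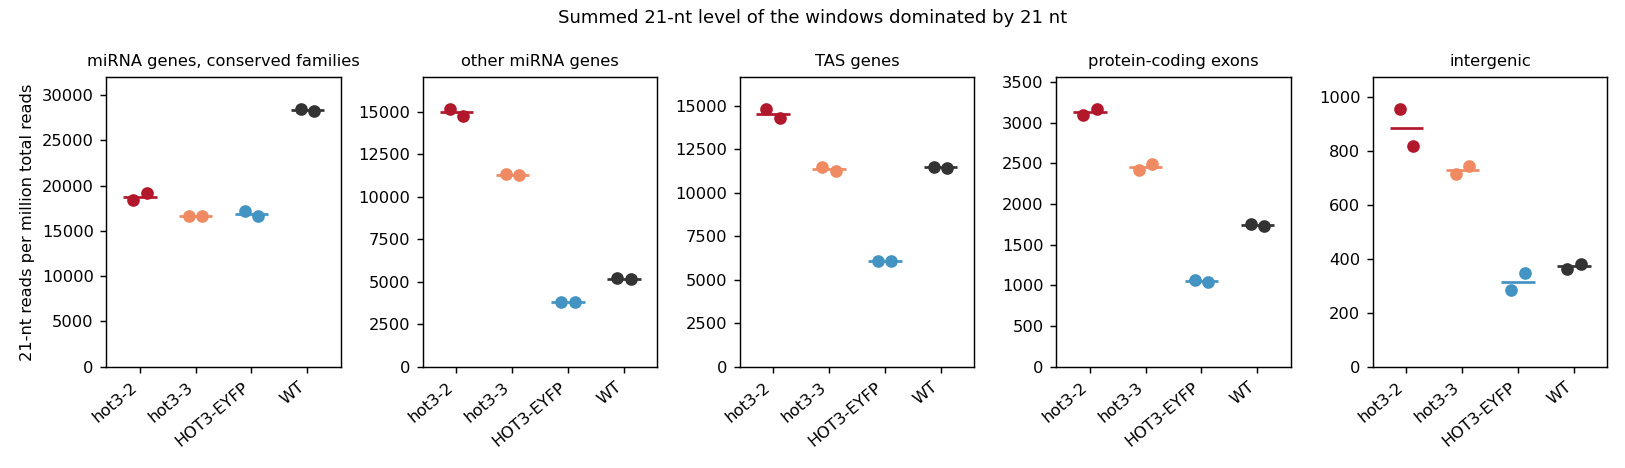
Summed 21-nt level of the windows by class, in 21-nt reads per 1000000 total reads of the library (y axes start at 0 and differ between panels). Points are the 2 libraries of each genotype and lines their mean, with both alleles high in the panel of other miRNA genes (11288 to 15153, against 3812 to 5194) and WT alone high for conserved families (28260 and 28436).

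The length profile of the members' summed reads held less 21 nt in the alleles and in *HOT3-EYFP* than in WT. Since 21 nt chose the windows, these shares are descriptions, and they depended on which windows were summed. The difference of the alleles from the plants with functional HOT3 in the 21-nt share was -2.03 percentage points over all members and 0.56 over members with a 21-nt share of at least 50%. That in the 24-nt share was 0.93 for summed reads and -1.25 as a mean over windows. The 21-nt share of the members' reads was 70.7% ± 0.721 in *hot3-2*, 69.9% ± 0.327 in *hot3-3*, 70.6% ± 0.351 in *HOT3-EYFP* and 74.1% ± 0.376 in WT (SD, n = 2 each). The 22-nt share was 6.14% ± 0.034 in *hot3-2*, 6.31% ± 0.016 in *hot3-3*, 5.59% ± 0.109 in *HOT3-EYFP* and 5.36% ± 0.044 in WT. The 24-nt share was 3.81% ± 0.113 in *hot3-2*, 3.66% ± 0.098 in *hot3-3*, 2.85% ± 0.057 in *HOT3-EYFP* and 2.75% ± 0.046 in WT. Both shares were above WT in the alleles by more than the spread of the libraries. Within the *TAS* genes, the 21-nt share was 60.9% ± 0.063 in *hot3-2*, 60.1% ± 0.038 in *hot3-3*, 63.3% ± 0.377 in *HOT3-EYFP* and 68.7% ± 0.328 in WT. Shorter reads made up much of the difference there. *TAS* reads of 19 nt were 5.78% in *hot3-2*, 5.57% in *hot3-3*, 4.13% in *HOT3-EYFP* and 3.30% in WT, and those of 20 nt were 11.9%, 12.3%, 11.2% and 8.98% in the same order. Intergenic members went the other way, with a 21-nt share of 59.0% ± 2.13 in *hot3-2*, 58.9% ± 0.623 in *hot3-3*, 52.2% ± 2.64 in *HOT3-EYFP* and 51.1% ± 0.428 in WT. The window with the miR5026 copy weighed in this. It held 2482 of 6050 TMM-scaled 21-nt reads of these members in the first *hot3-2* library. In the first *hot3-3* library it held 2037 of 5060, and in the first WT library 534 of 2674. Some intergenic members also entered through the alleles, where 21 nt had to lead.

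Single windows were compared by edgeR's quasi-likelihood test on 21-nt counts. A call needed a change of at least 2-fold and a Benjamini-Hochberg adjusted p under 0.01 over all 4808 windows tested, and all adjusted p below come from that test. These windows were not limited to the nuclear set and included windows of rDNA or organelles, so shares over all windows are not nuclear shares. Of the 485 members, 448 had at least 10 reads of 21 nt in at least 2 libraries and were tested, and 37 were not. 63 members had no 21-nt read in at least 1 library. Between the alleles (4 libraries) and the genotypes with functional HOT3 (4 libraries, *HOT3-EYFP* and WT), 89 of 448 members were higher in the alleles (19.9%) and 40 were lower (8.93%). Over all windows tested 5.26% were called higher and 5.62% lower. The median log2 fold change was 0.39 over the members and 0.07 over all tested windows. With total reads as library size the median of all tested windows was 0.34 in place of 0.07, and 117 members were called higher and 31 lower, among 356 and 146 of all 4808 windows. The member counts lay in 65 loci with a rise and 21 with a fall. A window could have entered through the genotypes in which it was high, so the counts were split by where the rule was met with a minimum of 40 reads. Of 350 tested windows that met it in each set of 4 libraries taken alone, 56 were higher and 34 lower. Of 73 that met it only in the alleles, 33 were higher and 0 lower, and of 24 that met it only with functional HOT3, 0 were higher and 6 lower.

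Each mutant set against WT gave smaller counts. In *hot3-2*, 57 members were higher (12.7%) and 36 lower (8.04%) than in WT, where 3.7% of all windows were called higher and 3.37% lower. In *hot3-3*, 51 were higher (11.4%) and 38 lower (8.48%), against 3.54% and 2.25% of all windows. The falls in *hot3-3* numbered 25 without its first library. The *hot3-3* against *hot3-2* comparison called 2 members higher and 1 lower, against 0.187% and 0.0416% of all windows. In *HOT3-EYFP* against *hot3-2*, 22 members were higher (4.91%) and 88 lower (19.6%), against 6.05% and 4.1% of all windows. With total reads as library size these counts were 7 and 137, among 133 and 330 of all windows, and the count of rises was 9 to 19 when 1 library was left out. In *HOT3-EYFP* against WT, 3 were higher (0.670%) and 16 lower (3.57%), against 0.333% and 0.437% of all windows, and with total reads 1 and 27, among 6 and 34 of all windows. Leaving out 1 library gave 0 to 3 rises and 9 to 16 falls there. The comparisons share libraries, so their counts are not independent of each other.

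**Figure D3:**
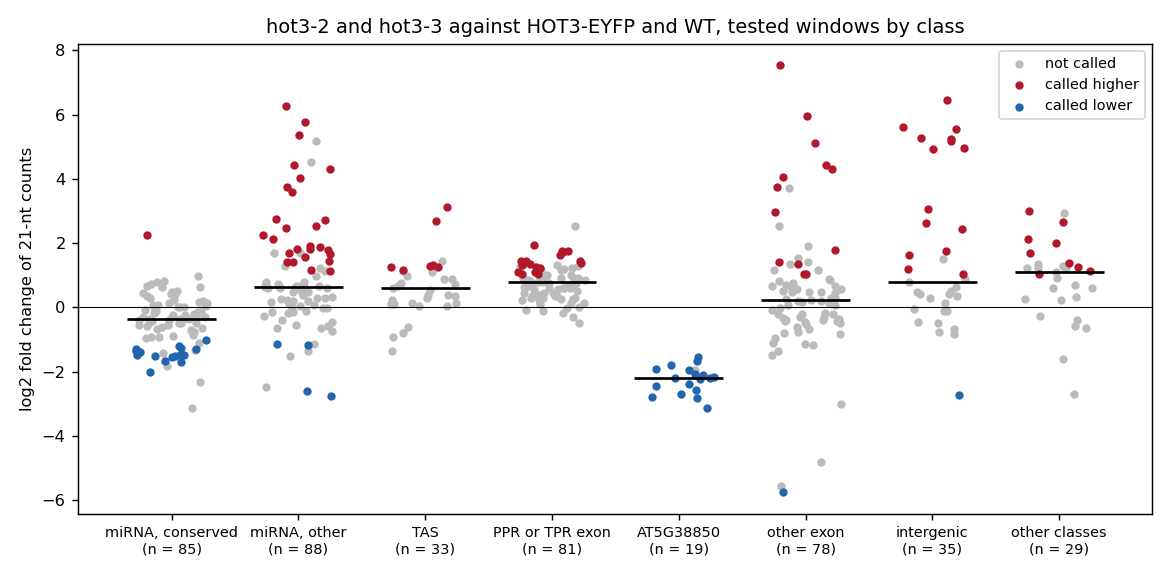
Log2 fold change of 21-nt counts (y axis, edgeR) in *hot3-2* and *hot3-3* against *HOT3-EYFP* and WT for the 448 tested windows, by class, with called windows in red (higher) or blue (lower) and the median as a bar. Values beyond about 4 in either direction rest mostly on a few reads in one group, and most called falls sit in conserved miRNA genes (16) and AT5G38850 (18).

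The rises and falls were not spread evenly over the classes, as the plot of fold changes by class shows. In conserved miRNA families 1 of 85 tested windows was higher in the alleles and 16 were lower, with a median log2 fold change of -0.37. In the other miRNA genes 27 of 88 were higher and 4 lower, with a median of 0.64. In *TAS* genes 7 of 33 were higher and 0 lower (median 0.60, with 5 and 0 by DESeq2 and 4 lower at an unadjusted p under 0.05), and in intergenic windows 15 of 35 were higher and 1 lower (median 0.78). Among exons, 17 of 81 windows of PPR genes or their tetratricopeptide repeat (TPR) relatives were higher and 0 lower (median 0.78), and 18 of 19 windows of the single gene AT5G38850 were lower. The remaining 78 exon windows had 13 rises and 1 fall. The grouping of miRNA genes into conserved and other was made with results of these data in view, so no test was set on the groups.

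The values by library for the windows described next are counts of 21-nt reads scaled by TMM to the mean effective library size of 836014 reads, called normalised reads. Among miRNAs of no conserved family, the window of miR845a changed most. miR845 is known in Arabidopsis pollen to match primer-binding sites of LTR retrotransposons. miR845a (chr4:12217457-12217477, minus strand, in *MIR845a*) had 22371 and 25375 normalised reads in *hot3-2* and 20190 and 21500 in *hot3-3*, against 403 and 271 in *HOT3-EYFP* and 275 and 231 in WT. All 4 libraries of the alleles lay far above the other 4, and those with functional HOT3 overlapped. The log2 fold change between the alleles and the plants with functional HOT3 was 6.25 (SE 0.13, adjusted p = 7.3e-10), and that of *HOT3-EYFP* against *hot3-2* was -6.14 (SE 0.18, adjusted p = 6.4e-09). miR5026 (chr4:7844612-7844632, plus strand) had 28678 and 26219 normalised reads in *hot3-2* and 21849 and 20976 in *hot3-3*, against 7898 and 7425 in *HOT3-EYFP* and 6773 and 6309 in WT. Its groups did not overlap, and it was 1.78 higher in the alleles on the log2 scale (SE 0.04, adjusted p = 6.6e-10).

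Other miRNAs of this kind rose together in both alleles. The window of miR173-3p, from the precursor of the trigger of *TAS1* and *TAS2*, had 11290 and 11167 normalised reads in *hot3-2* and 9642 and 9631 in *hot3-3*, against 4216 and 4465 in *HOT3-EYFP* and 3505 and 3566 in WT (log2 fold change 1.41). miR843 had 1123 and 1141 in *hot3-2* and 987 and 965 in *hot3-3*, against 40.4 and 20.8 in *HOT3-EYFP* and 85.8 and 99.3 in WT (log2 fold change 4.29). In both the alleles were above all libraries with functional HOT3, and for miR843 *HOT3-EYFP* was also below WT. miR823, which targets the DNA methyltransferase gene *CMT3*, had 320 and 320 normalised reads in *hot3-2* and 209 and 177 in *hot3-3*, against 32.7 and 35.1 in *HOT3-EYFP* and 34.8 and 45.6 in WT (log2 fold change 2.75). miR5028 had 179 and 140 in *hot3-2* and 133 and 133 in *hot3-3*, against 15.3 and 15.6 in *HOT3-EYFP* and 10.9 and 8.1 in WT (log2 fold change 3.58). The windows of *MIR829* (2.47), *MIR858a* (1.43), whose miRNA targets *MYB* mRNAs, and *MIR863* (1.40 at miR863-5p) were also called higher. In *MIR859* 164 reads in the alleles stood against 2 in the plants with functional HOT3 at 1 window, a ratio of 66.8 after scaling (95% interval from counting 18.2 to 557). This window entered through the alleles and had to be high there, so the ratio is a description only.

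The most abundant of the conserved families with a fall was miR159, which targets the mRNAs of *MYB33* and *MYB65*. miR159b-3p (chr1:6220813-6220833, plus strand) had 14694 and 14199 normalised reads in *hot3-2* and 14737 and 14357 in *hot3-3*, against 30046 and 29815 in *HOT3-EYFP* and 46124 and 45188 in WT. miR159a (chr1:27713234-27713254, minus strand) had 15433 and 14840 in *hot3-2* and 16192 and 16204 in *hot3-3*, against 27154 and 25627 in *HOT3-EYFP* and 38343 and 36813 in WT. For both, the alleles were lowest, *HOT3-EYFP* lay between and WT was highest, with no overlap between these 3. The log2 fold change between the alleles and the plants with functional HOT3 was -1.35 (SE 0.02, adjusted p = 2.3e-11) for miR159b-3p and -1.01 (SE 0.02, adjusted p = 1.0e-09) for miR159a. The value of miR159a was close to the 2-fold limit and lost its call when a library of either allele was left out.

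miR166, which targets the class III HD-ZIP mRNAs, showed a similar order. miR166a-3p (chr2:19176241-19176261, plus strand) had 4440 and 3852 normalised reads in *hot3-2* and 3300 and 3456 in *hot3-3*, against 6363 and 7201 in *HOT3-EYFP* and 16112 and 16187 in WT. The alleles were below all libraries with functional HOT3 (log2 fold change -1.48), and *HOT3-EYFP* was in turn below WT (-1.25). miR391-5p, which was counted with the other miRNA genes, had 7.24 and 13.9 in *hot3-2* and 7.5 and 13.9 in *hot3-3*, against 48.0 and 35.1 in *HOT3-EYFP* and 111 and 92.2 in WT (-2.60, SE 0.28, adjusted p = 6.9e-05). The star strand in the miR167a precursor, miR167a-3p, had 31.7 and 32.9 in *hot3-2* and 39.4 and 38.8 in *hot3-3*, against 111 and 116 in *HOT3-EYFP* and 113 and 123 in WT (-1.70). For it the plants with functional HOT3 overlapped and both alleles lay below them. The windows of miR167a-5p (-1.31), which targets *ARF6* and *ARF8*, of miR164b-5p (-1.20), which targets *CUC* and other *NAC* mRNAs, and of miR827 (-1.53), which targets *NLA*, were also called lower. Not every abundant miRNA moved past the limit. The window of miR161.1, which targets PPR mRNAs and was counted with the other miRNA genes, had 16327 and 14788 normalised reads in *hot3-2* and 13931 and 13735 in *hot3-3*, against 14146 and 14564 in *HOT3-EYFP* and 18326 and 18511 in WT. The alleles overlapped *HOT3-EYFP* there.

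**Figure D4:**
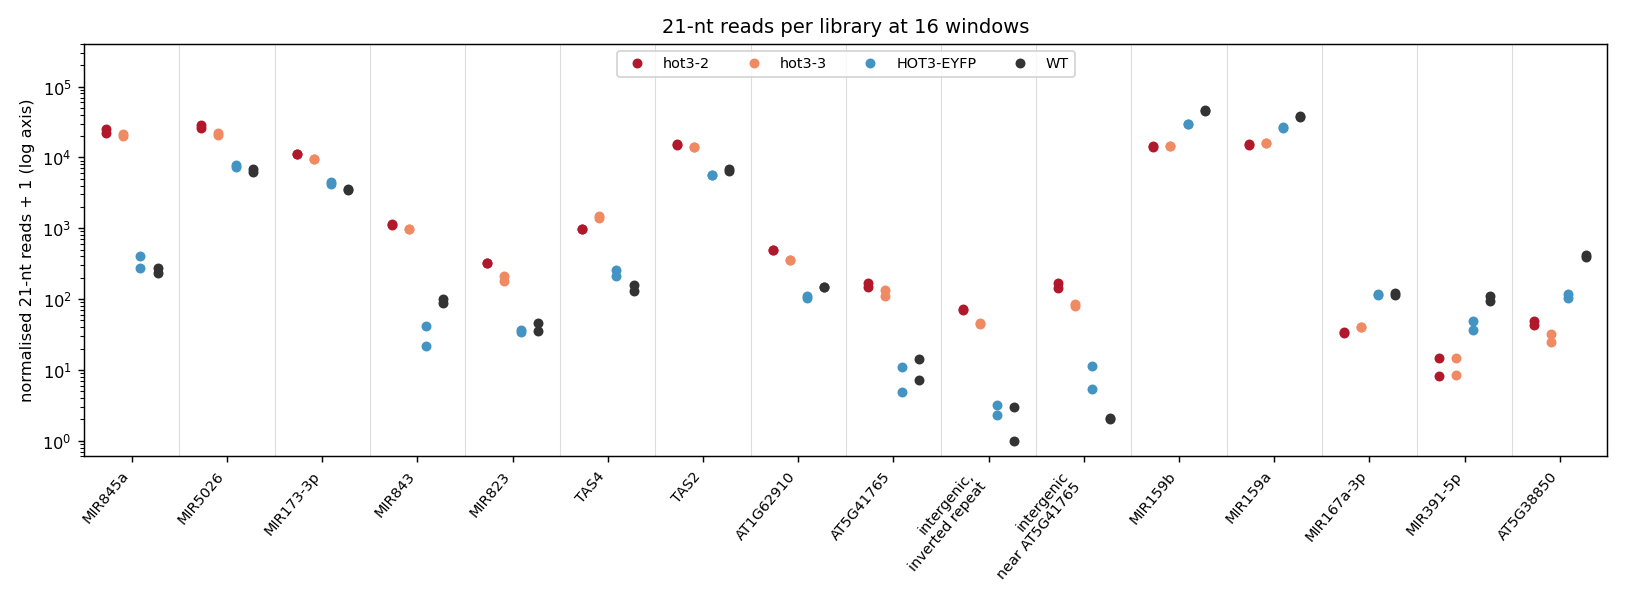
Normalised 21-nt reads plus 1 (y axis, log scale) in each of the 8 libraries at 16 windows, in the order *hot3-2*, *hot3-3*, *HOT3-EYFP*, WT within each window. The red and orange points of the alleles lie above the blue and black ones at the 11 windows on the left, such as *MIR845a* (20190 to 25375, against 231 to 403), and below them at the 5 on the right.

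Several families hold identical mature sequences in more than 1 gene, and the sources used here do not say how a read with several positions was placed. 62 members and 24 other windows formed 31 groups with an identical mature miRNA, so for these a single window cannot be trusted. Reads of the windows of a group were therefore summed and fitted again, a step added after seeing the data. The summed windows were called lower for miR160 (log2 fold change -1.53), miR166 (-1.16), miR167a/b (-1.06), miR164a/b (-1.01) and miR399b/c (-1.16), of which miR399 targets *PHO2*. For miR166, miR167 and miR164 the sums lay nearer to the 2-fold limit than the single windows above. The sums were called higher for miR858 (1.46), miR5026 (1.80), miR3932a/b-3p (1.19) and miR841a/b-3p (1.30). For miR3932a/b-3p and miR841a/b-3p, *HOT3-EYFP* was called lower than WT (-1.63 and -2.16). Neither allele was called against WT there, at 0.89 and 0.56 in *hot3-2* and -0.14 and -0.11 in *hot3-3*. For miR398b/c, which targets superoxide dismutase mRNAs, 3 windows of both arms were summed, since the *MIR398c* window holds both, and the sum was at -0.04 (adjusted p = 0.66). The window of miR398b-3p alone had 3187 and 2926 normalised reads in *hot3-2* and 4142 and 4512 in *hot3-3*, against 8674 and 10566 in *HOT3-EYFP* and 13879 and 13938 in WT, and was called lower (-1.67, adjusted p = 1.6e-08). The *MIR398c* window, which holds an identical copy, had 14701 and 27557 in *hot3-2* and 20657 and 20482 in *hot3-3*, against 15725 and 17935 in *HOT3-EYFP* and 13393 and 14616 in WT, so the libraries of *hot3-2* differed there. Summed miR171a-3p, which also matches the antisense strand of its targets *HAM1*, *HAM2* and *HAM3*, was at -0.88 (adjusted p = 9.4e-05), below the 2-fold limit. The *HAM3* window had no 21-nt read in *hot3-2*, 23.4 and 8.32 normalised reads in *hot3-3*, 141 and 69.0 in *HOT3-EYFP* and 96.7 and 14.2 in WT, and the libraries of a genotype differed there by up to several fold. With copies summed, 93 members or groups were higher and 35 lower of 417 tested, among 270 and 264 of all 4770 windows or groups.

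tasiRNAs of the *TAS* genes did not move as one. All 8 listed *TAS* genes had member windows, 33 in all. Summed over them, normalised reads were 93811 and 91940 in *hot3-2*, 81359 and 80715 in *hot3-3*, 54470 and 55741 in *HOT3-EYFP*, and 84843 and 83813 in WT. *hot3-3* was thus below WT, *hot3-2* was above it and *HOT3-EYFP* was lowest. *TAS4* (AT3G25795), whose siRNAs target *MYB* mRNAs, rose most. Its window at chr3:9417700-9417799 had 964 and 968 normalised reads in *hot3-2* and 1401 and 1483 in *hot3-3*, against 253 and 212 in *HOT3-EYFP* and 128 and 159 in WT. The groups did not overlap and *hot3-3* was highest (log2 fold change 2.69 between the alleles and the plants with functional HOT3). *TAS2*, whose siRNAs target PPR mRNAs, had 15669 and 15046 at chr2:16539800-16539899 in *hot3-2* and 14253 and 14143 in *hot3-3*, against 5690 and 5722 in *HOT3-EYFP* and 6781 and 6504 in WT (1.26). *TAS1C* went the other way at its most abundant window, chr2:16537800-16537899, with 14745 and 14736 normalised reads in *hot3-2* and 12269 and 12316 in *hot3-3*, against 15580 and 16593 in *HOT3-EYFP* and 26372 and 26217 in WT. There both alleles and *HOT3-EYFP* lay below WT, and the difference of *hot3-3* from WT was past the limit (-1.10). Over all *TAS* windows, 4 were higher and 1 lower in *hot3-2* against WT, where 3.7% and 3.37% of all windows were. In *hot3-3* against WT 3 were higher and 1 lower (3.54% and 2.25% of all windows). The single falls in the alleles were near these shares. In *HOT3-EYFP* against *hot3-2* 0 were higher and 10 lower (6.05% and 4.1% of all windows). One window each of *TAS3b* (1.33) and *TASIR-ARF* (1.15), which are *TAS3* genes whose siRNAs target *ARF* mRNAs, was also higher in the alleles.

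A part of the PPR windows were called higher in the alleles. The genes annotated as PPR had 67 member windows in 11 genes, of which 58 windows in 8 genes lay in a cluster on chromosome 1 between positions 23177800 and 23508799. Their summed normalised reads were 9018 and 9745 in *hot3-2*, 7275 and 7710 in *hot3-3*, 3801 and 3999 in *HOT3-EYFP*, and 5321 and 5309 in WT. No library of the alleles overlapped one with functional HOT3, and *HOT3-EYFP* was below WT. Of 63 tested windows 12 were higher in the alleles and 0 lower, against 5.26% and 5.62% of all windows, with a median log2 fold change of 0.78. Against WT 6 were higher in *hot3-2* and 4 in *hot3-3*, where 3.7% and 3.54% of all windows were. DESeq2 called 9 higher and 0 lower, and 0 were lower at an unadjusted p under 0.05. The window of AT1G62910 at chr1:23299800-23299899 had 490 and 495 normalised reads in *hot3-2* and 352 and 349 in *hot3-3*, against 109 and 103 in *HOT3-EYFP* and 149 and 146 in WT (1.73). AT1G63150, a TPR-like gene of the same cluster, had 2009 and 2026 at chr1:23420000-23420099 in *hot3-2* and 2290 and 2195 in *hot3-3*, against 853 and 791 in *HOT3-EYFP* and 886 and 843 in WT (1.34). These genes are close relatives and share sequence, so reads may be split between them, and the windows of 1 gene share its transcript. With *HOT3-EYFP* set against *hot3-2*, 17 of the 63 PPR windows were lower and 0 higher, where 4.1% of all windows were lower and 6.05% higher.

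Other lists of targets had few members. Of 7 listed auxin receptor and response factor genes, *AFB2*, *AFB3* and *ARF4* had 7 windows with a median log2 fold change of -0.67 between the alleles and the plants with functional HOT3. By edgeR 0 of them were called, by DESeq2 0, and 3 were lower at an unadjusted p under 0.05. Of 17 listed genes of the silencing machinery, *AGO1*, the target of miR168, and *AGO2*, the target of miR403, had 4 windows with a median of 0.11. By edgeR and by DESeq2 0 of them were called, and 1 was higher at an unadjusted p under 0.05.

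A single disease resistance gene supplied most of the falls among exons. AT5G38850 encodes a protein of the TIR-NBS-LRR class, the intracellular immune receptors of plants, and 19 of its windows were members. Their summed normalised reads were 285 and 296 in *hot3-2*, 206 and 198 in *hot3-3*, 721 and 728 in *HOT3-EYFP*, and 2032 and 1963 in WT. WT was highest, *HOT3-EYFP* lay between and the alleles were lowest, without overlap. 18 of the 19 windows were called lower in the alleles, with log2 fold changes of -1.53 to -3.12. The window at -3.12 had 2.72 and 0 normalised reads in *hot3-2* and 2.81 and 4.62 in *hot3-3*, too few to meet the rule there. Windows of this kind entered through the plants with functional HOT3 and had to be low in the alleles. 1 window, chr5:15555500-15555599, was the strongest of the 19 in each genotype. It had 42.6 and 47.6 normalised reads in *hot3-2* and 30.9 and 24.04 in *hot3-3*, against 101 and 117 in *HOT3-EYFP* and 397 and 412 in WT. The log2 fold change was -2.57 (SE 0.15, adjusted p = 7.0e-07), and *HOT3-EYFP* differed from WT by -1.89 (SE 0.20, adjusted p = 0.00028). AT5G43740, a disease resistance gene of the CC-NBS-LRR class with 13 member windows, had no called window among 11 tested in that comparison by edgeR or by DESeq2, while 1 was higher and 2 were lower at an unadjusted p under 0.05.

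**Figure D5:**
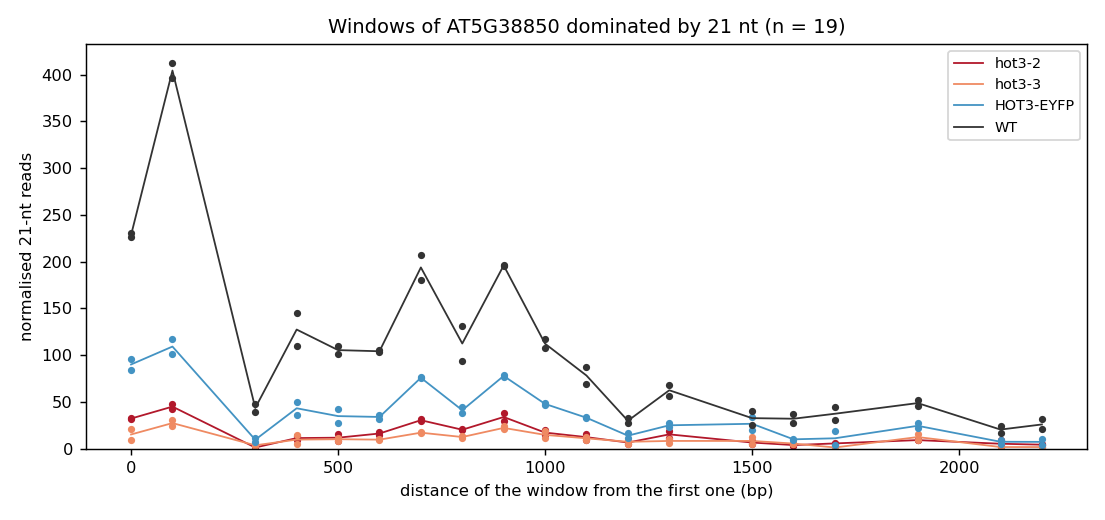
Normalised 21-nt reads (y axis, from 0) in the 19 member windows of AT5G38850 by distance in bp from the first of them. Points are libraries and lines the mean of the 2 libraries, with WT (397 and 412 at the peak) above *HOT3-EYFP* (101 and 117) and both above *hot3-2* and *hot3-3*.

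Among the exons outside these genes 13 of 78 tested windows rose, against 5.26% of all windows tested. Windows of AT5G41765 and AT4G19580 with few reads in plants with functional HOT3 entered through the alleles and had to be high there. AT3G06435, of unknown function, had 1243 and 1266 normalised reads at chr3:1969600-1969699 in *hot3-2* and 1150 and 1177 in *hot3-3*, against 160 and 133 in *HOT3-EYFP* and 168 and 156 in WT (log2 fold change 2.97). AT5G41765 had 145 and 167 at chr5:16717000-16717099 in *hot3-2* and 111 and 134 in *hot3-3*, against 9.82 and 3.90 in *HOT3-EYFP* and 13.04 and 6.08 in WT (4.06). In both, all 4 libraries of the alleles lay above the other 4. In another window of AT5G41765, 102 reads in the alleles stood against 0 in the plants with functional HOT3, which is at least 27.7-fold higher when set against a floor of 3 reads over the group. The exact two-sided 95% interval of that ratio from counting began at 22.1. In AT4G19580, the window with the 81-bp arm had 44.4 and 63.2 normalised reads in *hot3-2* and 18.8 and 37.9 in *hot3-3*, against 1.09 and 5.21 in *HOT3-EYFP* and 0 and 0 in WT. The ratio of its scaled reads was 29.8 (95% interval from counting 12.6 to 93.0). Intervals of this kind cover counting error only.

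Genes of tRNAs, snRNAs, snoRNAs or rRNAs had 9 member windows, of which 5 were higher in the alleles and 0 lower, against 5.26% and 5.62% of all windows. *SNOR30*, a small nucleolar RNA gene, had 410 and 437 normalised reads in *hot3-2* and 436 and 542 in *hot3-3*, against 140 and 178 in *HOT3-EYFP* and 85.8 and 72.9 in WT (log2 fold change 2.02). The alleles overlapped each other and lay above *HOT3-EYFP*, which was above WT by 1.0002 on the log2 scale (adjusted p = 0.0097), a call at the limit that was lost without either WT library.

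Among intergenic windows 15 of 35 tested rose, against 5.26% of all windows tested. Some of the 15 had few reads with functional HOT3, so they entered through the alleles and had to be high there. The most abundant of the 15 is the window of chromosome 5 with a copy of miR5026 shown above, 2647 bp from AT5G36297 and 1779 bp from AT5G36300. It had 2482 and 1925 normalised reads in *hot3-2* and 2037 and 1999 in *hot3-3*, against 470 and 847 in *HOT3-EYFP* and 534 and 645 in WT (log2 fold change 1.76). The alleles were above the rest, in the same direction and of about the same size as at *MIR5026* itself, from which its reads cannot be separated. A window at chr3:1963700-1963799 had 801 and 795 in *hot3-2* and 758 and 950 in *hot3-3*, against 332 and 398 in *HOT3-EYFP* and 178 and 209 in WT (1.63). A window at chr5:16715900-16715999, 18 bp from AT5G41763, had 167 and 145 in *hot3-2* and 77.8 and 85.1 in *hot3-3*, against 4.36 and 10.4 in *HOT3-EYFP* and 1.09 and 1.01 in WT (5.26). Both were without overlap between the alleles and the plants with functional HOT3. The window at chr5:10019100-10019199 had 375 reads in the alleles and 9 in plants with functional HOT3, a ratio of 34.0 after scaling (17.7 to 74.9). The only intergenic window called lower, at chr1:24223300-24223399, had 4.53 and 4.33 normalised reads in *hot3-2* and 1.88 and 3.70 in *hot3-3*, against 26.2 and 15.6 in *HOT3-EYFP* and 32.6 and 21.3 in WT (-2.72).

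Inverted repeats were found at some of these loci. An arm of at least 20 bp with its exact reverse complement within 1000 bp occurred in 31 of 485 members (6.39%), against 725 of 28500 other windows with 24 nt as the leading length (2.54%) and 53 of 981 with 22 nt (5.40%). Among intergenic members it was 8 of 44 (18.2%), against 699 of 22063 other intergenic windows (3.17%), and it was 0 of 33 in *TAS* genes. Of the members called higher in the alleles 13 of 89 (14.6%) had such an arm, and of those called lower 0 of 40. Of the 33 called higher that met the rule in the libraries of the alleles alone but not in the others 11 had an arm (33.3%), and of the 56 that met it in each set of 4 libraries 2 had one (3.57%). Windows that entered through the alleles had to be high there, so nothing is read from the 14.6%. Neighbouring windows of a repeat are not independent and the search was chosen after the values were seen, so the shares carry no test. The pair shown above lies in an intergenic stretch of chromosome 1 next to AT1G73490. Its window at chr1:27636100-27636199 had 69.7 and 71.0 normalised reads in *hot3-2* and 44.1 and 45.3 in *hot3-3*, against 2.18 and 1.3 in *HOT3-EYFP* and 0 and 2.03 in WT. The ratio of 255 reads in the alleles to 5 in the plants with functional HOT3 was 41.6 after scaling (17.6 to 129). Its partner at chr1:27635600-27635699 had 191 reads against 3, a ratio of 51.9 (17.5 to 254). Another window of that stretch, at chr1:27636300-27636399, which carries a further exact arm of 130 bp, had 111 reads against 1, a ratio of 90.5 (15.9 to 3606). An intergenic pair on chromosome 3 had arms measured at 60 and 86 bp. Arms were measured from the first base of the window on, so the shorter value is a lower bound. The window of this pair at chr3:17205800-17205899 had 65 reads in the alleles against 1, a ratio of 53.0 (9.18 to 2125).

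Few windows were called between the complementation line and WT. The 16 windows lower in *HOT3-EYFP* than in WT included miR165b (log2 fold change -2.66), miR3932b-5p (-1.64), miR843 (-1.58), miR165a-3p (-1.26) and 4 windows of AT5G38850. The *MIR165b* window had 416 and 277 normalised reads in *HOT3-EYFP*, against 2061 and 2332 in WT, and *hot3-2* had 448 and 374, so that the line overlapped its parent mutant there. With the miR165 copies summed, *HOT3-EYFP* was still called lower than WT (-1.73, adjusted p = 3.9e-09). The call of miR843 was lost without either WT library. The 3 windows higher in *HOT3-EYFP* than in WT were *SNOR30* and 2 windows of *HOT3* itself. Over its 3 member windows *HOT3* had 0.905 and 1.73 normalised reads in *hot3-2*, 0 and 0.925 in *hot3-3*, 103 and 118 in *HOT3-EYFP*, and 2.17 and 4.05 in WT. These windows were thus near 0 in 3 genotypes and entered through *HOT3-EYFP* alone. sRNA reads of a gene are no measure of its mRNA, so they do not check the insertions.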

How the data were processed

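The authors recovered sRNAs of 18-day-old seedlings from a gel, removed adaptors after sequencing (cutadapt 4.2) and used their pipeline pRNASeqTools with Bowtie, per the labels and the study's methods. Per library they deposited unnormalized read counts of each length from 18 to 26 nt in 100-bp windows, with strands summed. The study names TAIR10 for its RNA-seq and settings for reads with several positions for its rDNA reference, but for the window counts neither is given in the sources used here. The number of windows per nuclear chromosome matched the lengths in TAIR10.1, whose RefSeq sequence and annotation were used.

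The members, lists and groupings were chosen with earlier results of these data known. Members and 4 genotypes of 2 libraries were compared on 21-nt counts by edgeR 4.0.16 (quasi-likelihood, TMM, genotype as factor, all 8 libraries, at least 10 counts in at least 2 libraries, R 4.3.3). The test was tried on simulated data. A window overlapping several features took the first class in the order miRNA, *TAS*, structural RNA, exon, intron, pseudogene or transposon, other RNA. Windows named were the 10 loci with most reads, the 10 largest rises and falls of the alleles against the plants with functional HOT3, the 5 largest in other comparisons, up to 4 of each gene list, the 5 largest intergenic loci and those at the edges of the rule. Other miRNAs and windows, the joining of windows into loci, the summing of copies and the search for inverted repeats were chosen after values were seen. Fitted fold changes of windows with few reads in a group were replaced by ratios of scaled counts with exact 95% binomial intervals. Folding used RNAfold 2.7.2. Alternatives were other library sizes, filters, limits, read lengths, rules, DESeq2 1.42.0, replicate number as a block and leaving out each library.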

Additional observations from a re-analysis of the deposited data

Results flagged for a closer look

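In 3 windows the effect of *hot3-3* against WT differed from that of *hot3-2* by a test of the difference (edgeR, adjusted p under 0.01). At the *MIR395e* window (chr1:26272800-26272899) the difference was 7.814 on the log2 scale. It had 42.2 and 13.9 normalised reads in *hot3-3*, 0 and 0 in *hot3-2*, 18.6 and 26.03 in *HOT3-EYFP* and 10.9 and 13.2 in WT, so the fitted value rests on a group at 0. This window holds no annotated mature miRNA start and was in no sum of copies. The sum of the windows that hold miR395a, miR395d and miR395e went the other way, at -0.86, and was not called (edgeR, adjusted p = 0.46). At the *MIR3932b* window of miR3932b-5p (chr4:7890600-7890699) the difference was -1.224. It had 207 and 191 normalised reads in *hot3-3*, 448 and 483 in *hot3-2*, 161 and 169 in *HOT3-EYFP* and 495 and 537 in WT, and with its copy summed the difference was -1.19 (adjusted p = 0.000286). The second *hot3* allele and the complementation line were low there, and *hot3-2* was near WT. At the transposon gene AT4G28970 (chr4:14283500-14283599) the difference was 1.825, with 122 and 105 normalised reads in *hot3-3*, 38.9 and 25.1 in *hot3-2*, 19.6 and 23.4 in *HOT3-EYFP* and 26.1 and 23.3 in WT.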

How the results depend on the processing

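Of 1108 values of 68 called windows and comparisons named by the rule, 969 kept direction and call under the alternatives, 139 lost the call and 0 reversed, and 42 of the 68 kept the call in every alternative. At an adjusted p under 0.05 with no fold limit the members called higher and lower were 146 and 69 of the alleles against the plants with functional HOT3, 106 and 62 for *hot3-2* against WT, 81 and 72 for *hot3-3* against WT, 43 and 145 for *HOT3-EYFP* against *hot3-2*, and 8 and 52 for *HOT3-EYFP* against WT. In loci in place of windows the falls numbered 21 for both alleles together, 20 for *hot3-2* and 21 for *hot3-3*, and 52 for *HOT3-EYFP* against *hot3-2*. With total reads as library size, *HOT3-EYFP* had 7 rises and 137 falls against *hot3-2*, and 1 and 27 against WT. Its rises against WT were 6 and falls 30 with no count filter, 0 rises under the replicate block, 1 rise with only the genotypes compared, with DESeq2, at a 21-nt share of 50% or at 200 counts, and 8 falls with all lengths summed. Over all windows there were 46 rises and 56 falls with no count filter and 9 rises under the block. With only the genotypes compared 7 windows rose, with DESeq2 15 rose, and with all lengths summed 87 fell. At a share of 50% *hot3-2* had 36 rises against WT. Leaving out 1 library gave 25 to 39 falls for *hot3-3* against WT, 9 to 19 rises for *HOT3-EYFP* against *hot3-2*, and 0 to 3 rises and 9 to 16 falls for *HOT3-EYFP* against WT. The cause of these shifts was not tested beyond the altered setting itself.

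Log2 ratios of the summed members to WT (0.16 for *hot3-2*, -0.15 for *hot3-3*, -0.74 for *HOT3-EYFP* per total reads) were -0.12, -0.27 and -0.37 per nuclear reads and -0.046, -0.19 and -0.44 with TMM. Without the largest window they were 0.30, -0.012 and -0.72, and at a share of 50% they were 0.066 and -0.23 for the 2 alleles. The alleles minus functional HOT3 difference of the 21-nt share (-2.03 percentage points) was 0.56 at a share of 50%. That of 22 nt (0.75) was 0.086 as a mean over windows, 0.34 at a share of 50% and 0.48 without the largest window, and that of 24 nt (0.93) was -1.25, 0.24 and 0.70. By the feature at its centre, 79 in place of 44 windows were intergenic. Some uncalled values near 0 changed sign. With nuclear reads as library size *TAS1A* at chr2_117217 was at -0.079 and *MIR398b* at chr5_46910 at -0.028. With total reads *MIR159b* at chr1_62207 was at 0.12, *MIR161* at chr1_178257 at 0.12 and the intergenic chr5_223227 and chr4_81312 at 0.15 and 0.17. Leaving out 1 library gave -0.027 to 0.15, -0.47 to 0.11, -0.012 to 0.20 and -0.23 to 0.061 for *TAS1A*, *MIR159b*, *MIR398b* and chr4_81312. Replicate numbers did not pair the libraries, since deviations of the same number correlated at -0.07 to 0.005 over 6 pairs of genotypes. With replicate number as a block the counts of the alleles against the plants with functional HOT3 were 80 and 39, and 47 and 35 for *hot3-2* against WT, 45 and 35 for *hot3-3*, 16 and 75 for *HOT3-EYFP* against *hot3-2*, and 0 and 13 for *HOT3-EYFP* against WT. Over all windows the block gave 215 and 233 for the alleles together, 150 and 146 for *hot3-2* and 149 and 96 for *hot3-3*. For *HOT3-EYFP* it gave 248 and 166 against *hot3-2* and 9 and 16 against WT. Windows with fewer than 10 reads of 21 nt in nearly all libraries (37 of 485) could not be tested.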
